A study of Mus musculus with 14 samples.

Results

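Glycolysis and the response to low oxygen were examined through 36 genes in retinal veins of 9-month-old DBA/2J mice and a normotensive control line. The genes were taken by symbol from the 40123 gene symbols of the expression table. They comprise 16 glycolytic enzymes, 5 switches that set the rate of glycolysis or the fate of pyruvate and lactate, the 3 alpha subunits of hypoxia-inducible factor (HIF) and 12 HIF targets. Veins of the glaucoma model came from 9 DBA/2J mice, an inbred strain that develops pigment dispersion, raised intraocular pressure and glaucoma with age. The 5 control veins came from DBA/2J-Gpnmb+/SjJ mice of the same age, a DBA/2J line that carries a working Gpnmb allele and that the labels call normotensive. DBA/2J is also known as a carrier of a Tyrp1 mutation that contributes to the iris disease, which the control line shares as background. All mice received 0.33 mg of sodium fluorescein per g of body weight 5 minutes before death, so that vessels could be seen, and the 4 major veins of 1 mouse with their main branches made 1 sample. Intraocular pressure was not among the labels, so the comparison is between the 2 lines, and its relation to pressure was not tested. Each sample is a different mouse, and p-values measure the spread between mice.

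Glycolysis splits glucose into pyruvate in the cytosol and yields ATP without oxygen, and lactate dehydrogenase then recycles its cofactor. Retina and blood vessel endothelium are both known for a high rate of glycolysis. When oxygen falls, prolyl hydroxylases stop marking the HIF alpha subunits for destruction, and HIF then binds short DNA elements and raises transcription of glycolytic enzymes, pyruvate dehydrogenase kinases and vascular signals. HIF activity is set largely through protein stability, which RNA levels do not measure.

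The core of the element that HIF binds is written here as ACGTG or GCGTG and was searched on both strands, so that CACGTG counts on each strand. The window ran from 250 bases before a gene's start to 50 bases after it, and RefSeq windows (GRCm38.p6) were found for 33 of the 36 genes, with none listed for Epas1, Bnip3l and Ndrg1. In the first window of each gene, 26 of 33 members (78.8%) held either core, against 54.0% of the 16306 tested genes with a window. ACGTG was in 54.5% of members and in 22.8% of those genes, and GCGTG in 54.5% of members and in 42.6% of those genes. By role, either core was in 10 of 16 enzymes (62.5%), 5 of 5 switches, 2 of 2 HIF subunits and 9 of 10 HIF targets (90.0%). The targets were listed as HIF targets, and HIF is also known to act on glycolytic enzymes and pyruvate dehydrogenase kinases. The shares of the targets and of all members are therefore no independent test. Both cores contain CG, and the compared windows were not matched for CG content. The 250 bases before the start are shown for 5 members, with the cores in capitals. Hif1a (chr12:73907617-73907866, plus strand) and P4ha1 (chr10:59323046-59323295, plus strand) are shown because they were higher in DBA/2J veins, and Gapdh (chr6:125165774-125166023, minus strand) because it was lower. Hk1 and Mxi1, which were also higher, held neither core in their first window, though later windows of both did. Of the 6 members with a window that passed the test, 4 (66.7%) held either core in the first. Ldha (chr7:46845554-46845803, plus strand) and Ankrd37 (chr8:45999851-46000100, minus strand) are shown because they held 5 and 4 cores in these bases, yet neither passed the test.
Hif1a: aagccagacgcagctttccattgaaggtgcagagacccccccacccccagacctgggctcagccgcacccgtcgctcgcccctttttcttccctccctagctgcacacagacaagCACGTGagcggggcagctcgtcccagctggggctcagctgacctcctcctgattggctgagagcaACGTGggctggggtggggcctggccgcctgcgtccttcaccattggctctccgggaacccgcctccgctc
P4ha1: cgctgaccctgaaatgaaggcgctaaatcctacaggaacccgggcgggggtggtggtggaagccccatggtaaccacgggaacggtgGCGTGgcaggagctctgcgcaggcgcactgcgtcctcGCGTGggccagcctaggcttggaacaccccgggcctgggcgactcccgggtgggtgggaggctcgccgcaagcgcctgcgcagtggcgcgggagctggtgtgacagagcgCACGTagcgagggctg
Gapdh: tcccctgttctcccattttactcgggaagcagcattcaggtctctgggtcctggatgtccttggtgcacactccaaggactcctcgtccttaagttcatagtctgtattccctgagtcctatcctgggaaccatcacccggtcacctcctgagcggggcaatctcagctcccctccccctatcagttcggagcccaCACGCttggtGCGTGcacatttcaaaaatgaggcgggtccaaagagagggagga
Ldha: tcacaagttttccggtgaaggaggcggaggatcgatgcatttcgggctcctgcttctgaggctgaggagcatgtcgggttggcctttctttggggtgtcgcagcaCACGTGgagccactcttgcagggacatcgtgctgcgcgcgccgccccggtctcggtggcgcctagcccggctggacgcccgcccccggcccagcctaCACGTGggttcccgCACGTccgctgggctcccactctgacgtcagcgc
Ankrd37: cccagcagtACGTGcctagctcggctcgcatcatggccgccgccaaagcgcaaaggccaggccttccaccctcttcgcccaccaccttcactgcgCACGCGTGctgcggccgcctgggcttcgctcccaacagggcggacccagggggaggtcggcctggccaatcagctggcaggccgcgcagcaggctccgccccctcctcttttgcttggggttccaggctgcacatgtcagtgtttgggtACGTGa
The windows precede the RefSeq starts, and those of Hif1a, Gapdh, Ldha and Ankrd37 lie inside the longer spans that GENCODE gives these genes. A core in a window is a description of letters and not a bound site.

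Scaled totals ran between 14806322 and 22159797 per library, at an estimated 8931961 to 33786238 reads. Gpnmb, the gene of a melanosome glycoprotein and the locus at which the lines differ, ranged from 65.3 to 516 in DBA/2J and from 1409 to 3190.1 in control veins, with no overlap (log2 fold change -3.56, SE 0.38, limma adjusted p = 4.35e-05). Pan-endothelial markers, 18 genes such as Pecam1 and Cdh5 of which 6 were higher in DBA/2J, made up 0.128% to 0.445% of the total in DBA/2J and 0.115% to 0.177% in control veins. Rod photoreceptor markers took 2.7% to 7.22% in DBA/2J and 2.4% to 4.7% in control veins, so RNA of neural retina was present beside that of the vein. Lens crystallins, of which 8 of 8 were lower in DBA/2J, took 0.0148% to 0.983% in DBA/2J and 7.35% to 15.3% in control veins, without overlap. Calls of markers are at limma adjusted p under 0.05, where 12.1% of all genes tested were higher and 7.2% lower. No marker was at 0 in all libraries. Library numbers ran over 31 to 39 for DBA/2J and 16 to 30 for control, so lens RNA, library number and strain cannot be told apart. In bulk samples, fewer cells of a type and less RNA per cell cannot be told apart either.

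The 36 genes did not move together. Against control veins, 4 of the 36 were higher in DBA/2J (Hk1, Hif1a, P4ha1 and Mxi1) and 3 were lower (Aldoc, Gapdh and Bnip3l), while 29 did not pass the test. Of the 29166 genes tested, 12.1% were called higher and 7.2% lower, or 19.3% in either direction. Among protein-coding genes alone, 17.9% were called higher and 7.81% lower. The members' shares of 11.1% and 8.33% were near those of all genes, and the share called higher was below that of protein-coding genes. The members' median log2 fold change was 0.08, against 0.05 over all genes tested and 0.16 over protein-coding genes. All 36 passed the filter on low values. Values are scaled counts, and each test was limma on log2(value + 1) with adjustment over all genes at 0.05. Differences between the groups depended on transcript length and GC content. With that trend removed, 5.37% of genes were called higher and 7.05% lower, and 3 and 2 of the members.

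**Figure D1:**
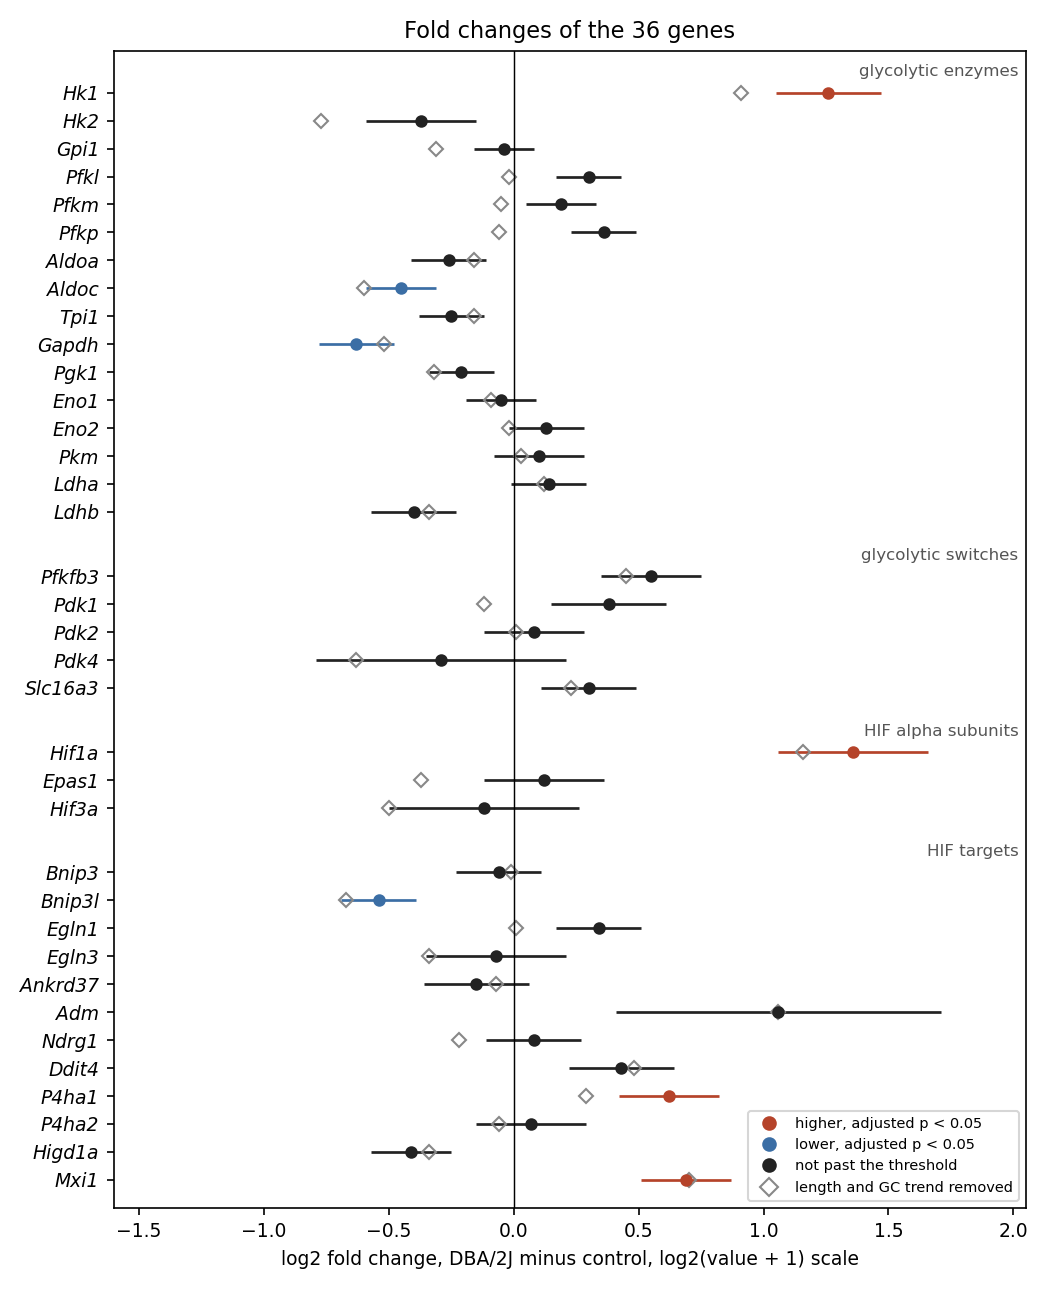
Log2 fold change (DBA/2J minus control, on the log2(value + 1) scale, horizontal axis) of each of the 36 genes, ordered by role from top to bottom. Filled circles with bars of 1 SE are the values as deposited, coloured where the limma adjusted p passed 0.05 (red higher, blue lower), and open diamonds are the values with the length and GC trend removed. The 4 red genes are Hk1, Hif1a, P4ha1 and Mxi1, and the 3 blue ones are Aldoc, Gapdh and Bnip3l.

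Glycolysis begins with hexokinase, which traps glucose as glucose 6-phosphate, and here 2 isozymes parted. Hk1, the housekeeping isozyme of brain and retina (chr10:62268855-62379908, minus strand, GRCm38), ranged over 2891 to 6714 with a median of 3967 in DBA/2J, against 2650.2, 2245, 1472, 1064 and 1666 in control samples 1 to 5. Every DBA/2J vein lay above every control vein, which was true of no other member. How many of all genes tested separate the groups without overlap was not counted, for Hk1 or for the genes named below. Hk1 rose in DBA/2J (log2 fold change 1.26, SE 0.21, limma adjusted p = 0.0011), and the value with the trend removed was 0.91 (limma adjusted p = 0.00984). Hk2, the inducible and insulin-responsive isozyme, ranged over 748 to 1696 with a median of 1211 in DBA/2J, against 1082, 1759.5, 2424, 1099 and 1637 in the control samples, and did not pass the test (-0.37, SE 0.22, limma adjusted p = 0.251). The groups overlapped for Hk2, with the lowest value in DBA/2J sample 9 and the highest in control sample 3. Per kb of transcript, mean levels were 1139.8 for Hk1 and 294 for Hk2 in DBA/2J, and 486 and 385 in control veins. Within each library, the log2 ratio of Hk2 to Hk1 ran over -2.30 to -1.23 with a median of -1.86 in DBA/2J, against -1.29, -0.35, 0.72, 0.05 and -0.03 in control samples 1 to 5. That ratio was lower in DBA/2J by 1.63 on the log2 scale (means -1.81 ± 0.31 in DBA/2J and -0.18 ± 0.73 in control, SD, n = 9 and n = 5, two-sided exact permutation p = 0.000999, adjusted over 6 ratios 0.00599), and it passed with any 1 library left out. Against control samples 1 to 3 alone, which have lower library numbers, it was -1.50 (exact permutation, adjusted p = 0.0545). Against samples 4 and 5 alone it was -1.82, without overlap (exact permutation p = 0.0182, the smallest that 9 against 2 can give, adjusted 0.109).

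Phosphoglucose isomerase (Gpi1) and the 3 phosphofructokinase genes (Pfkl, Pfkm and Pfkp), which carry out the committed step, did not pass the test. Their log2 fold changes were -0.04, 0.30, 0.19 and 0.36. Pfkp, the platelet-type subunit, lay closest to the threshold, with values of 3689.6 to 5704 with a median of 4538 in DBA/2J, against 3684, 3437, 3701, 3106 and 3685 in control samples 1 to 5 (SE 0.13, limma adjusted p = 0.0594). Only DBA/2J sample 9 fell below the highest control value of Pfkp, in sample 3. Without DBA/2J sample 8 or sample 9, Pfkp passed the test (limma adjusted p = 0.0468 and 0.0411). With the length and GC trend removed, its fold change was -0.06 (limma adjusted p = 0.836).

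Aldolase cleaves fructose 1,6-bisphosphate. Aldoa, the muscle-type gene and the most abundant member per kb of transcript (mean 34305 in DBA/2J and 41478 in control veins), had a log2 fold change of -0.26 (SE 0.15, limma adjusted p = 0.248). Aldoc, the brain-type gene that marks astrocytes in brain (chr11:78322968-78327781, plus strand, GRCm38), ranged over 5989.7 to 9815 with a median of 6769 in DBA/2J, against 10419, 8914, 12254, 8514 and 9459 in control samples 1 to 5. Except for DBA/2J sample 5 at 9815, all DBA/2J veins lay below all control veins. Aldoc fell in DBA/2J (log2 fold change -0.45, SE 0.14, limma adjusted p = 0.0319), and the value with the trend removed was -0.60 (limma adjusted p = 0.0107). Leaving out control sample 1 or 3, or any of DBA/2J samples 1, 4, 7 and 8, ended the call (limma adjusted p between 0.0506 and 0.0927), as did comparison with control samples 4 and 5 alone (-0.32, limma adjusted p = 0.294). Müller glia and astrocyte markers, 12 genes, summed to 0.38% to 1.14% of the total in DBA/2J and to 0.48% to 0.74% in control veins. With their mean log2(value + 1) as a covariate, a fit added after seeing the data, Aldoc was -0.52 (limma adjusted p = 0.00966). The Aldoa to Aldoc log2 ratio differed by 0.18 (two-sided exact permutation p = 0.123, adjusted 0.147), and by 0.43 with the trend removed (exact permutation, adjusted p = 0.016). Without DBA/2J sample 5 it also passed, at 0.25 (exact permutation, adjusted p = 0.0163).

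Triose phosphate isomerase (Tpi1) had a log2 fold change of -0.25 and phosphoglycerate kinase (Pgk1) of -0.21, neither past the threshold. Gapdh, which oxidises glyceraldehyde 3-phosphate between them (chr6:125161715-125166467, minus strand, GRCm38), ranged over 11044 to 17158 with a median of 12978 in DBA/2J, against 17644, 20454, 27792, 16709.5 and 18807 in control samples 1 to 5. DBA/2J sample 3 lay just above the lowest control, sample 4, and the other 8 DBA/2J veins lay below all control veins. Gapdh fell in DBA/2J (log2 fold change -0.63, SE 0.15, limma adjusted p = 0.00814). With the trend removed it was -0.52 (limma adjusted p = 0.0633), and against control samples 4 and 5 alone it was -0.46 (limma adjusted p = 0.128). Gapdh and several of these abundant enzymes have processed pseudogenes of near-identical sequence, so the split of reads between copies is uncertain.

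The 2 enolase genes, the neuron-enriched Eno2 and the ubiquitous Eno1, and pyruvate kinase (Pkm) did not pass the test, with log2 fold changes of 0.13, -0.05 and 0.10. Eno1 to Eno2 differed by -0.18 on the log2 scale (two-sided exact permutation p = 0.378, adjusted 0.378). Ldha, whose subunit favours lactate formation, ranged over 13599 to 22411 with a median of 17817 in DBA/2J, against 17087, 18803, 16876, 12310.0 and 17540.0 in the control samples (log2 fold change 0.14, limma adjusted p = 0.567). Ldhb, whose subunit favours lactate oxidation, ranged over 5239 to 8867 with a median of 6371 in DBA/2J, against 9327, 9368, 11724, 7176 and 7370.1 in the control samples (-0.40, limma adjusted p = 0.104). The groups overlapped for both genes. Their log2 ratio was nevertheless higher in DBA/2J, at 1.01 to 2.09 with a median of 1.37, against 0.87, 1.00, 0.53, 0.78 and 1.25 in control samples 1 to 5. The difference was 0.54 (two-sided exact permutation p = 0.017, adjusted 0.03). It did not pass without control sample 3 (0.45, exact permutation adjusted p = 0.0867), control sample 4 (0.51, 0.0713) or DBA/2J sample 3 (0.49, 0.0501).

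As a group, 1 of the 16 enzymes rose and 2 fell (6.25% and 12.5%). All genes tested gave 12.1% and 7.2%, and protein-coding genes 17.9% and 7.81%. The enzymes' median log2 fold change was -0.05. The summed share of the 16 enzymes was 0.919% to 1.23% of the total in DBA/2J and 0.907% to 1.16% in control veins, so the ranges lay almost on top of each other. Below Aldoa, the most abundant enzymes per kb of transcript were Ldha (11468), Pkm (11054), Gapdh (10227) and Tpi1 (10047) in DBA/2J, and Gapdh (15932), Tpi1 (12047), Ldha (10405) and Pkm (10392) in control veins. In DBA/2J these 4 mean levels lay within the spread between libraries of each other. Hk2 was the lowest of the 16 in both groups.

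**Figure D2:**
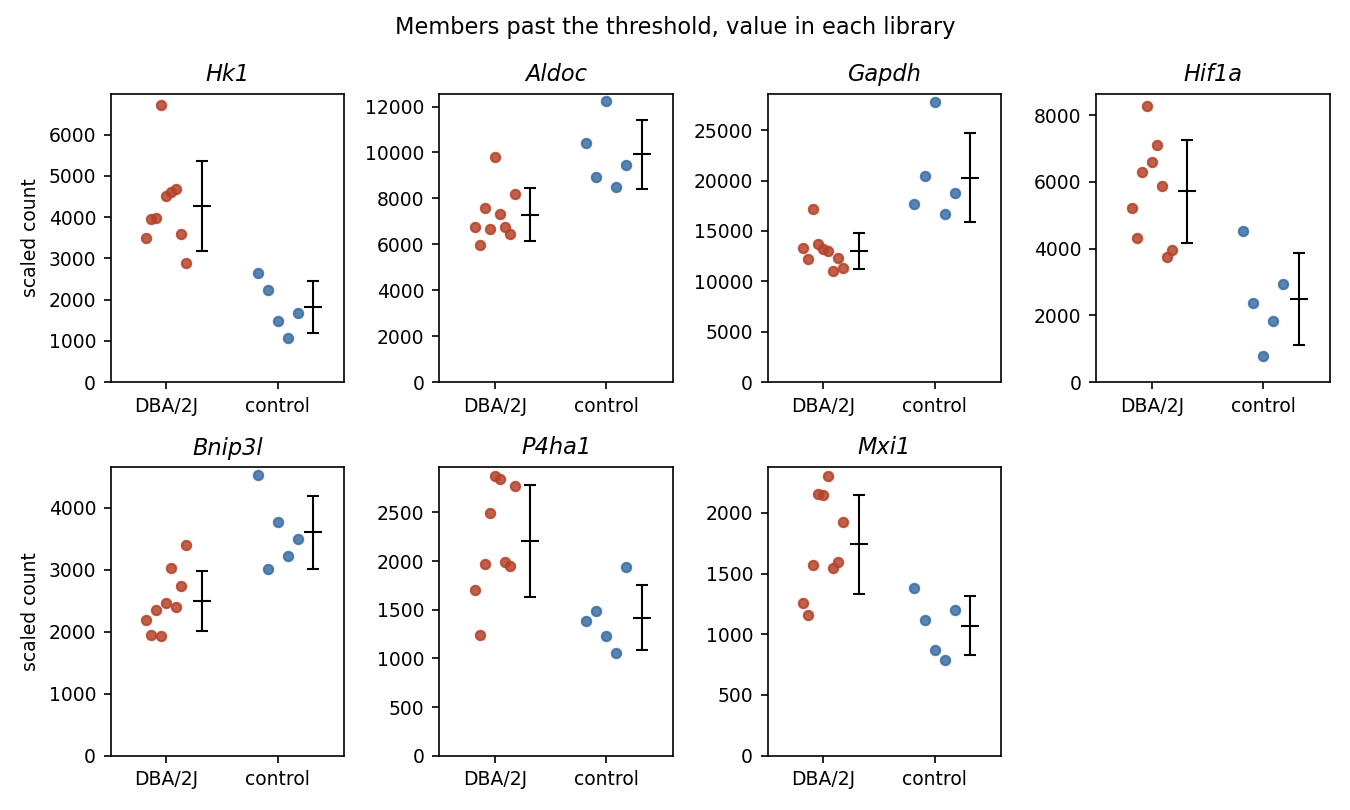
Scaled count (vertical axes, from 0) of the 7 genes past the threshold in each of 9 DBA/2J (red) and 5 control (blue) libraries, with mean and SD beside the points. For Hk1 all DBA/2J points lie above all control points, and for the other 6 genes the groups overlap by a few libraries.

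None of the 5 switches passed the test, where 19.3% of all genes tested passed in either direction. Pfkfb3 makes the activator of phosphofructokinase and drives glycolysis in sprouting endothelium. It ranged over 303 to 818 with a median of 574 in DBA/2J, against 429, 410.2, 348, 303 and 369.6 in control samples 1 to 5 (log2 fold change 0.55, SE 0.20, limma adjusted p = 0.0612). DBA/2J sample 2 was the lowest of the 9, level with control sample 4, and without it Pfkfb3 passed the test (0.66, limma adjusted p = 0.0139). Among the pyruvate dehydrogenase kinases, which hold pyruvate back from mitochondria, Pdk1 had a log2 fold change of 0.38 and Pdk2 of 0.08. Pdk4 was barely expressed, at 1.58 to 15.3 in DBA/2J and 3.79 to 8.86 in control veins, a level set by a few reads. Slc16a3, the lactate exporter MCT4, had a log2 fold change of 0.30 (limma adjusted p = 0.28). Their summed share of the total was 0.0127% to 0.0189% in DBA/2J and 0.00884% to 0.0128% in control veins.

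Of the 3 HIF alpha subunit genes, 1 rose, where 12.1% of all genes tested and 17.9% of protein-coding genes did. Hif1a, which encodes the oxygen-regulated subunit found in most cells (chr12:73901375-73947530, plus strand, GRCm38), ranged over 3749 to 8278 with a median of 5866 in DBA/2J, against 4526, 2373, 795, 1826 and 2937 in control samples 1 to 5. Control sample 1 lay among the DBA/2J values, above samples 2, 8 and 9, and the other 4 control veins lay below all DBA/2J veins. Hif1a rose in DBA/2J (log2 fold change 1.36, SE 0.30, limma adjusted p = 0.00573). With the trend removed the value was 1.16 (limma adjusted p = 0.0139), and the call held with any 1 library left out (limma adjusted p at most 0.019). Epas1, the HIF-2 alpha gene that is prominent in endothelium, ranged over 1493 to 4004 with a median of 2338 in DBA/2J, against 2010.2, 1812, 3899, 1999.8 and 2037 in the control samples, and did not pass the test (0.12, SE 0.24, limma adjusted p = 0.773). Control sample 3 had the lowest Hif1a of all 14 libraries and the highest Epas1 of the control group. Hif3a, whose products can restrain HIF signalling, was low at 13.7 to 48.0 in DBA/2J and 12.2 to 48.4 in control veins (-0.12, limma adjusted p = 0.862).

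The log2 ratio of Hif1a to Epas1 ran over 0.14 to 2.18 with a median of 1.09 in DBA/2J, against 1.17, 0.39, -2.29, -0.13 and 0.53 in control samples 1 to 5. Hif1a exceeded Epas1 in scaled counts in 9 of 9 DBA/2J libraries and in 3 of 5 control libraries. The difference was 1.24 (two-sided exact permutation p = 0.02, adjusted 0.03), and 1.53 with the trend removed (exact permutation, adjusted p = 0.00899). Without control sample 3 it was 0.68 and did not pass (exact permutation, adjusted p = 0.134). It also missed the threshold without control sample 4 (1.22, exact permutation adjusted p = 0.0713) or DBA/2J sample 1 (1.20, 0.0524), 2 (1.20, 0.0513) or 3 (1.16, 0.0501). Per kb of transcript, mean Hif1a was 1303.5 in DBA/2J and 568.2 in control veins, and mean Epas1 470.3 in DBA/2J and 426 in control veins.

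**Figure D3:**
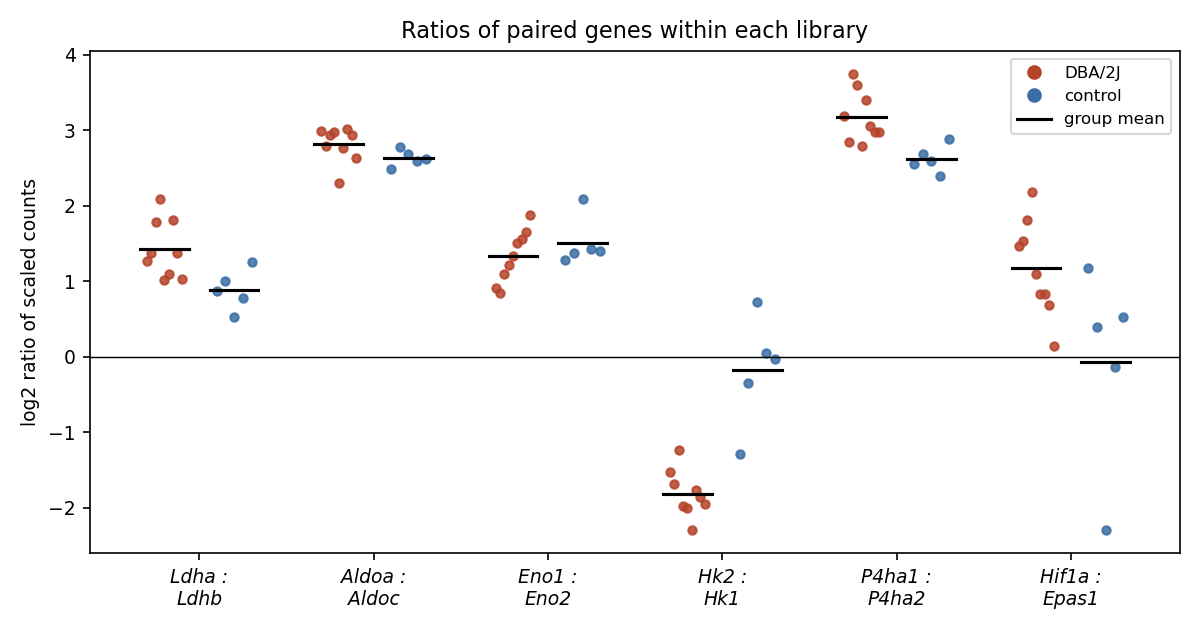
Log2 ratio of scaled counts (vertical axis) for 6 gene pairs within each library, with DBA/2J (red) left of control (blue) and a black line at each group mean. Hk2 to Hk1 is below 0 in all 9 DBA/2J libraries and above 0 in 2 of 5 control libraries, and control sample 3 lies lowest, at -2.29, in the Hif1a to Epas1 ratio.

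Of the 12 HIF targets, 2 rose and 1 fell (16.7% and 8.33%), with a median log2 fold change of 0.08. All genes tested gave 12.1% and 7.2%, and protein-coding genes 17.9% and 7.81%, so the targets' shares were near the background. Bnip3l, a mitophagy receptor also called Nix (chr14:66985239-67008877, minus strand, GRCm38), ranged over 1938 to 3396 with a median of 2396 in DBA/2J, against 4532, 3021, 3781, 3219.8 and 3498 in control samples 1 to 5. Only DBA/2J samples 6 and 9 reached the control range. Bnip3l fell in DBA/2J (log2 fold change -0.54, SE 0.15, limma adjusted p = 0.0188), and the value with the trend removed was -0.67 (limma adjusted p = 0.031). Against control samples 4 and 5 alone it was -0.45 (limma adjusted p = 0.179). Its paralog Bnip3 had a log2 fold change of -0.06 (SE 0.17, limma adjusted p = 0.836). Bnip3l is also abundant in maturing red cells, whose markers, 6 genes led by the globins, summed to 0.16% to 2.75% of the total in DBA/2J and 0.376% to 2.77% in control veins. Their part in the Bnip3l result was not tested.

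P4ha1, the catalytic subunit of the prolyl hydroxylase that matures collagen (chr10:59323296-59373304, plus strand, GRCm38), ranged over 1239 to 2876 with a median of 1994 in DBA/2J, against 1384, 1484, 1232, 1052 and 1942 in control samples 1 to 5. DBA/2J samples 1 and 2 lay below the highest control, sample 5, and the other 7 lay above it. P4ha1 rose in DBA/2J (log2 fold change 0.62, SE 0.20, limma adjusted p = 0.036), but not with the trend removed, where the value was 0.29 (limma adjusted p = 0.33). Leaving out any of control samples 1 to 4 or DBA/2J samples 4, 5, 6 and 9 also ended the call (limma adjusted p between 0.0534 and 0.107). With pan-endothelial markers as a covariate it was 0.45 (limma adjusted p = 0.131). P4ha2, the other catalytic subunit, had a log2 fold change of 0.07 (limma adjusted p = 0.865). The P4ha1 to P4ha2 log2 ratio ran over 2.79 to 3.75 with a median of 3.06 in DBA/2J, against 2.55, 2.69, 2.59, 2.39 and 2.89 in control samples 1 to 5. The difference was 0.55 (two-sided exact permutation p = 0.00649, adjusted 0.0195). It missed the threshold without control sample 4 (0.49, exact permutation adjusted p = 0.0545) and with the trend removed (0.35, 0.0593).

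Mxi1, a MAX-binding antagonist of MYC (chr19:53310518-53375810, plus strand, GRCm38), ranged over 1161 to 2303 with a median of 1593 in DBA/2J, against 1377, 1118, 869.8, 791 and 1201 in control samples 1 to 5. DBA/2J samples 1 and 2 lay below control sample 1, and the other 7 lay above all control veins. Mxi1 rose in DBA/2J (log2 fold change 0.69, SE 0.18, limma adjusted p = 0.0146), and the value with the trend removed was 0.70 (limma adjusted p = 0.0212). It did not pass against control samples 1 to 3 alone (0.62, limma adjusted p = 0.0735) or samples 4 and 5 alone (0.80, limma adjusted p = 0.0678).

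The remaining targets did not pass the test. The prolyl hydroxylases that sense oxygen, Egln1 and Egln3, had log2 fold changes of 0.34 and -0.07. Ankrd37, among the most HIF-responsive genes known, was at -0.15, and Ndrg1, a stress-response gene, was at 0.08. Ddit4, also called REDD1, which restrains mTORC1, was at 0.43 (limma adjusted p = 0.175). Higd1a, a mitochondrial survival factor, ranged over 1123 to 1897 with a median of 1736 in DBA/2J, against 1973, 1951, 3109, 2147 and 1803 in the control samples (-0.41, SE 0.16, limma adjusted p = 0.0727). Adm, which encodes the vasodilator adrenomedullin, had the largest fold change of those that did not pass, at 1.06 (SE 0.65, limma adjusted p = 0.274). Its values ranged over 26.9 to 1379 with a median of 146 in DBA/2J, against 105, 47.6, 140.3, 78.0 and 38.6 in control samples 1 to 5. The highest value was DBA/2J sample 3 and the lowest DBA/2J sample 2, so the range within DBA/2J exceeded the difference between the groups. The summed share of the 12 targets was 0.0758% to 0.108% of the total in DBA/2J and 0.0729% to 0.0846% in control veins, with overlap.

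Spread within the groups was uneven. Control sample 4 held the lowest control value for 25 of the 36 genes, while control samples 3 and 1 held the highest for 15 and 14. Among DBA/2J veins, sample 2 held the lowest value for 21 genes and sample 6 the highest for 11. The largest ratio of highest to lowest library was that of Adm in DBA/2J (51.2) and of Hif1a in control veins (5.69). Gpi1 was the steadiest in DBA/2J, at 1.23, and Pfkp in control veins, at 1.19.

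**Figure D4:**
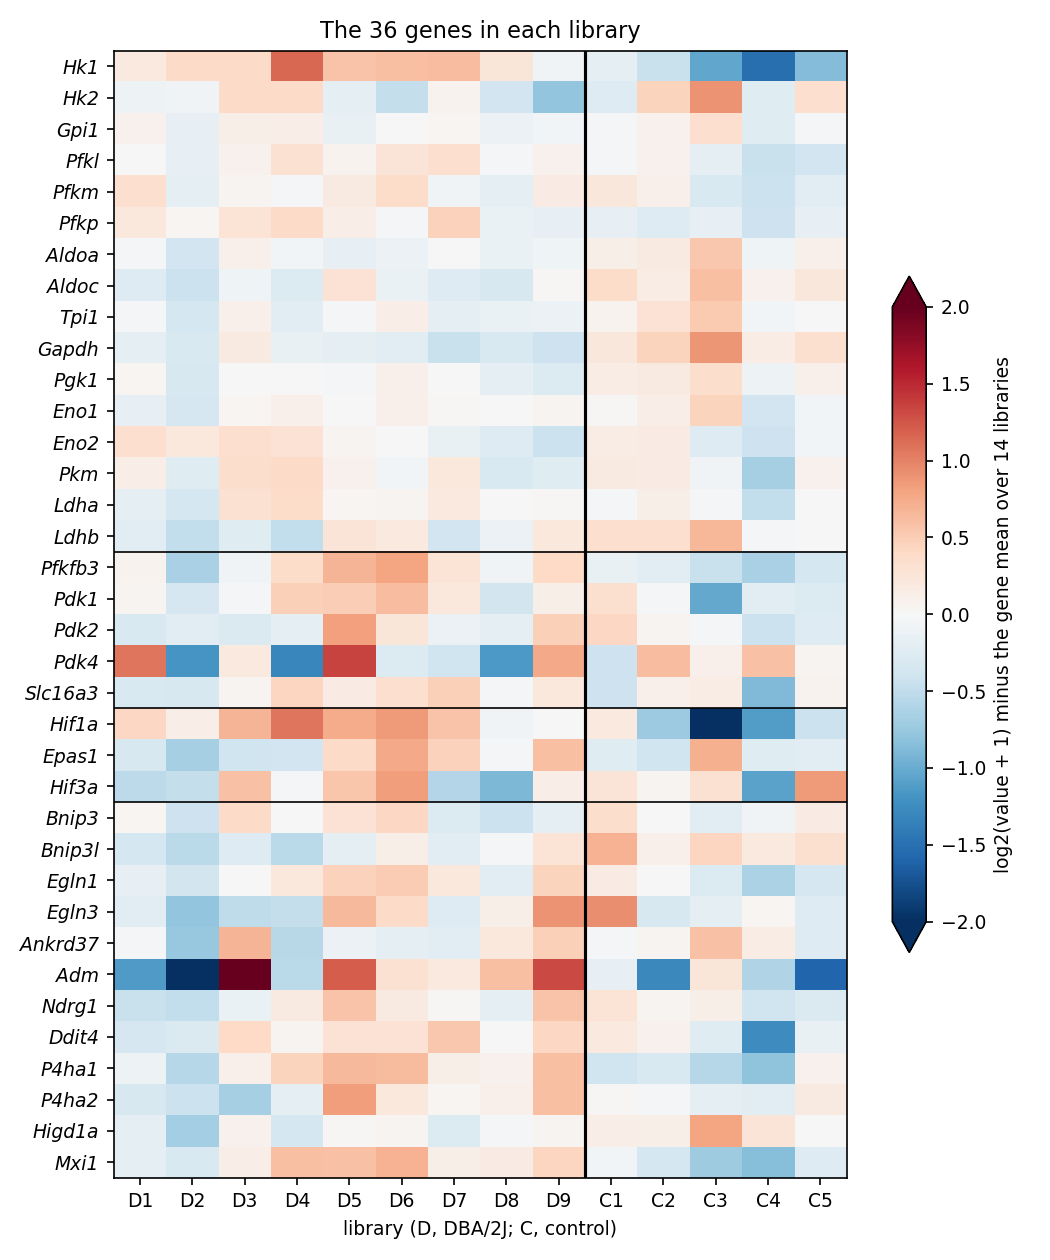
Each of the 36 genes (rows, grouped by role) in each library (columns, D for DBA/2J and C for control), as log2(value + 1) minus the gene's mean over 14 libraries. Shades saturate at 2 in either direction. Hk1 and Hif1a differ most between the sides of the black line, and Adm stands out in D3 and D2.

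Further genes of both pathways were counted from 2 longer lists. Both lists were chosen with earlier results of these data known, so their shares are no independent test. Of 28 other glycolysis and pyruvate genes, 27 were tested (Pklr was not), 9 rose and 4 fell, or 33.3% and 14.8% of those tested, against 12.1% and 7.2% of all genes and 17.9% and 7.81% of protein-coding genes. Their median log2 fold change was 0.43. With the length and GC trend removed, 4 rose and 4 fell (14.8% each, against 5.37% and 7.05% of all genes) and the median was 0.12. Without control sample 3, 4 rose in place of 9. Over all genes, with 1 library left out in turn, 2283 to 3974 were called higher, against 3518 with all libraries. Those called lower ran over 1247 to 2341, against 2101. The 4 with the lowest p were Mpc2, Eno3, Pgam2 and Mpc1. Both subunits of the mitochondrial pyruvate carrier passed, in opposite directions. Mpc2 ranged over 1498 to 2481 with a median of 1944 in DBA/2J, against 3965, 3409, 6306, 3954 and 3338 in the control samples (log2 fold change -1.11, SE 0.16, limma adjusted p = 0.000509). Mpc1 ranged over 1624 to 2649 with a median of 2207 in DBA/2J, against 1477, 1329.6, 1193, 1317 and 1245 in the control samples (0.71, SE 0.13, limma adjusted p = 0.00199). Neither gene's groups overlapped, and with the trend removed both calls held (limma adjusted p = 0.00103 and 0.00123). The muscle-type enolase Eno3 (-1.56, SE 0.25, limma adjusted p = 0.000947) and the muscle-type phosphoglycerate mutase Pgam2 (-1.63, SE 0.28, limma adjusted p = 0.00141) fell. Pgam2 did not pass against control samples 4 and 5 alone (-1.37, limma adjusted p = 0.0549). Slc2a1, the glucose transporter GLUT1 of the blood-retinal barrier, is given although it lies outside the rule for named genes and was chosen after its values were seen. It ranged over 2745 to 8523 with a median of 4419.7 in DBA/2J, against 4155, 3692, 3660.5, 2552 and 3612 in the control samples, and did not pass (0.53, SE 0.26, limma adjusted p = 0.157).

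Of 34 other HIF pathway genes, the second of these lists, 15 rose and 2 fell, or 44.1% and 5.88%, with a median log2 fold change of 0.53. All genes tested gave 12.1% and 7.2%, and protein-coding genes 17.9% and 7.81%, with a protein-coding median of 0.16. With the trend removed, the background was counted over all genes and not over protein-coding genes. In that setting 7 of the 34 rose and 3 fell (20.6% and 8.82%, against 5.37% and 7.05% of all genes) and their median was 0.25. Without control sample 3 or DBA/2J sample 1, 2 or 4, 1 of these genes fell in place of 2. Lox, which cross-links collagen and elastin, ranged over 36.8 to 195 with a median of 109.9 in DBA/2J, against 40.3, 16.1, 12.5, 3.16 and 4.78 in control samples 1 to 5. It rose in DBA/2J (log2 fold change 3.00, SE 0.50, limma adjusted p = 0.00124), with only DBA/2J sample 3 below control sample 1. Kdm3a, a histone H3K9 demethylase, ranged over 314 to 552 with a median of 417 in DBA/2J, against 298, 236, 110.5, 177 and 162 in the control samples (1.10, SE 0.21, limma adjusted p = 0.00224), and with the trend removed it was 0.64 (limma adjusted p = 0.0285). Hif1an, the asparaginyl hydroxylase that inhibits HIF, ranged over 995 to 1926 with a median of 1279.9 in DBA/2J, against 856, 841, 442, 637 and 789 in the control samples (0.92, SE 0.18, limma adjusted p = 0.00274), but with the trend removed it was 0.41 (limma adjusted p = 0.0929). Angptl4, a lipoprotein lipase inhibitor that loosens endothelial junctions, fell, ranging over 54.4 to 221 with a median of 139 in DBA/2J, against 487, 408, 423, 275 and 236 in the control samples (-1.37, SE 0.27, limma adjusted p = 0.00295). The groups did not overlap for Kdm3a, Hif1an and Angptl4. Against control samples 4 and 5 alone, Angptl4 did not pass (-0.90, limma adjusted p = 0.142). Vegfa, the vascular growth and permeability factor, was chosen after its values were seen. It ranged over 1091 to 1849 with a median of 1358 in DBA/2J, against 1231, 845, 700.0, 628 and 895 in the control samples, and rose (0.71, SE 0.17, limma adjusted p = 0.00808), with a value of 0.85 (limma adjusted p = 0.0107) after removal of the trend. Vegfa did not pass against control samples 1 to 3 alone (0.61, limma adjusted p = 0.056).

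**Figure D5:**
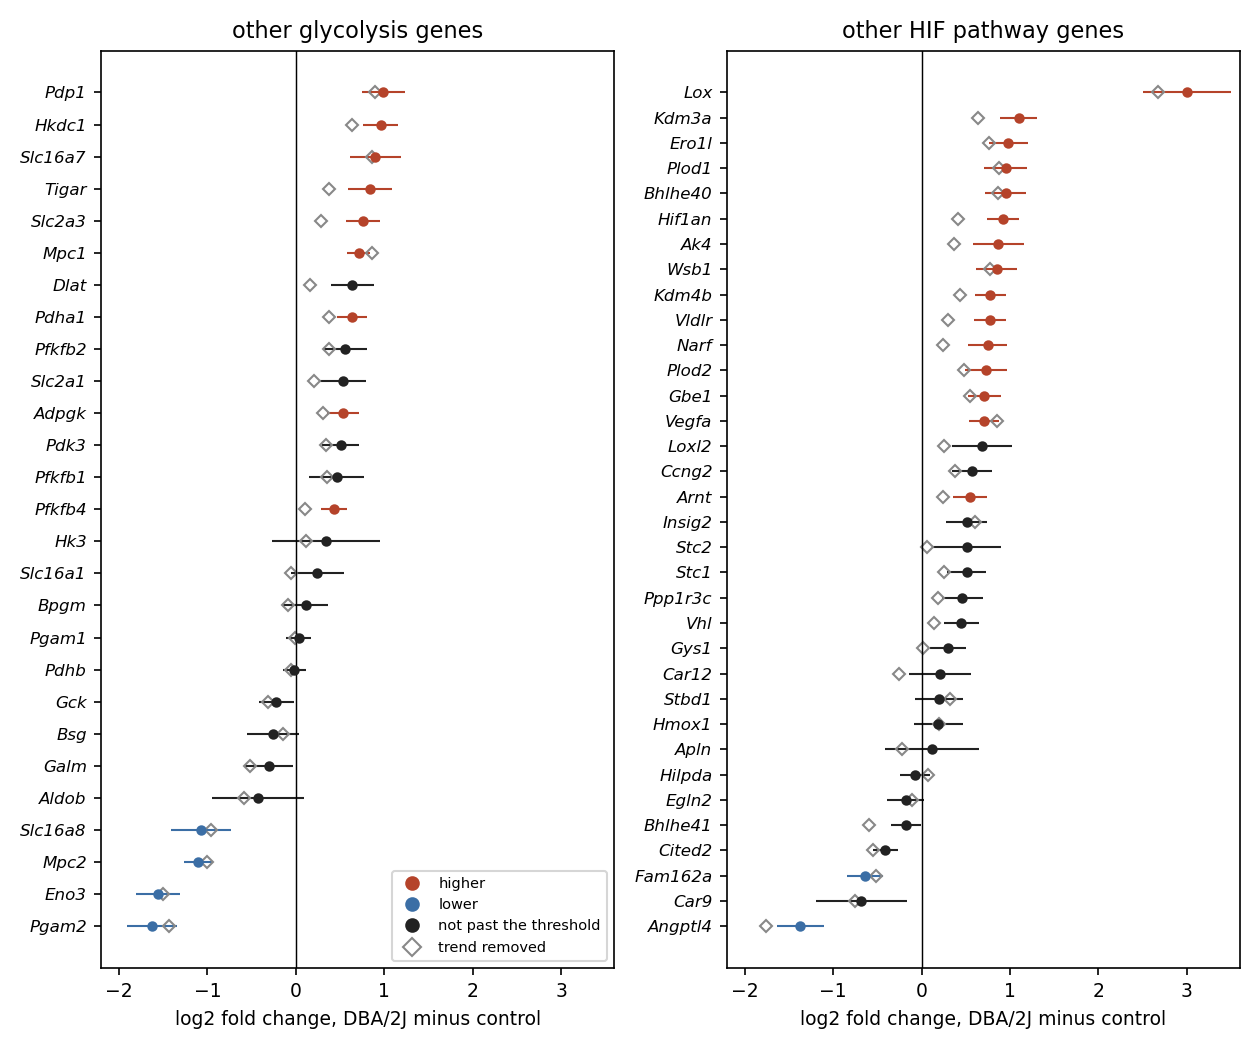
Log2 fold change (DBA/2J minus control, horizontal axis) with bars of 1 SE for 27 other glycolysis genes (left) and 34 other HIF pathway genes (right), sorted by value; red and blue mark genes past the threshold and open diamonds the values with the trend removed. Lox lies farthest to the right at 3.00, and many diamonds in the HIF panel lie left of their circles.

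The mean log2(value + 1) of the 8 lens crystallins was used as a covariate, and the other marker covariates were formed likewise. With the lens covariate none of the 7 called members passed (limma adjusted p between 0.326 and 0.603), and over all genes 1 was called higher and 8 lower. The summed lens share separates the groups without overlap, so that fit has little of the strain contrast left to test. With rod, pan-endothelial, or Müller glia and astrocyte markers as a covariate (the last added after seeing the data), the calls of Hk1, Hif1a, Aldoc, Gapdh, Bnip3l and Mxi1 held. Markers of bipolar, amacrine and horizontal cells, 11 genes of which 4 were higher in DBA/2J, separated the groups without overlap. They summed to 0.143% to 0.19% in DBA/2J and 0.105% to 0.137% in control veins. Ganglion cell markers, 10 genes of which 3 were lower in DBA/2J, summed to 0.0301% to 0.16% and 0.0846% to 0.12%. Neither list was used as a covariate, and its part in these results was not tested. Macrophage and microglia markers, 13 genes of which 4 were higher in DBA/2J, summed to 0.0117% to 0.0668% in DBA/2J and 0.00897% to 0.0143% in control veins, and their part in these results was not tested. Over all genes tested, the main fit called 12.1% higher and 7.2% lower.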

How the data were processed

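RNA from retinal veins of 9 DBA/2J and 5 control mice was amplified with SMART-Seq v4 and sequenced from Nextera XT libraries, per the labels' protocols. The series design text names kallisto with GRCm38 and GENCODE M23, while GRCm39 and sleuth also appear in the submitters' processing notes, so the genome build could not be settled. The authors deposited signal values per gene, which by their steps are kallisto's estimated counts after division by 1 factor for each library. The origin of these factors is not given in any source used. Read numbers were estimated from those steps and are approximate, and no count test was run.

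Of 40149 rows, 26 with date-like symbols were left out (at most 0.201% of a library). Of 40123 symbols, 39019 matched GENCODE M21 (GRCm38), which gave coordinates, median transcript length and GC content. Genes that reached 1 in 5 or more libraries entered limma 3.58.1 (trend, R 4.3.3) on log2(value + 1), group only, two-sided, with Benjamini-Hochberg adjustment at 0.05. That scale understates changes of low genes. The 6 ratios were compared by exact permutation over 2002 regroupings, of which the smallest possible p is 0.0005. The trend removal fitted splines of 5 degrees of freedom on length and GC content in each library.

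The members and lists were chosen with earlier results of these data known. All 36 members are named, with up to 4 genes of each longer list that passed with the lowest p. Replicate numbers do not pair the samples: deviations of same-numbered samples correlated between -0.0824 and 0.0154. No 2 libraries agreed within sampling noise. The scripts were tested on simulated data. Counting was not stated to use strand, so overlapping antisense genes cannot be told apart. With no molecular identifiers, read depth bears on counting error alone.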

Additional observations from a re-analysis of the deposited data

Results flagged for a closer look

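Within a group, 1 library stood far from the others for 8 of the 116 sets of values examined, where chance at 1 in 20 gives 5.8. DBA/2J sample 3 was high for Gapdh, at 17158 against a DBA/2J median of 12978. DBA/2J sample 4 was low for Angptl4, at 54.4 against a DBA/2J median of 139. Control sample 4 was low for Ldha, at 12310.0 against a control median of 17087, and for Slc2a1, at 2552 against 3660.5. Control sample 3 was high for Epas1, at 3899 against 2010.2, for Mpc2, at 6306 against 3954, and for the Eno1 to Eno2 log2 ratio, at 2.09 against 1.40. Control sample 1 was high for Egln3, at 465 against 216. Control samples 3 and 4 account for 5 of the 8.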

How the results depend on the processing

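None of the 7 members past the threshold changed sign under any alternative, and no change of sign listed here passed the test. Counts are of genes higher or lower in DBA/2J, out of the same lists as in the report. Against control samples 1 to 3 alone, counts became HIF targets 0 higher, other HIF 9 higher and all genes 2334 higher and 1373 lower, and the sign changed for Pkm (-0.05), Pdk2 (-0.11) and Ndrg1 (-0.12), and the ratios Ldha to Ldhb 0.62, Hk2 to Hk1 -1.50, P4ha1 to P4ha2 0.56 and Hif1a to Epas1 1.42 no longer passed. Against control samples 4 and 5 alone, counts became enzymes 0 lower, HIF targets 0 higher and 0 lower, other glycolysis 5 higher and 2 lower, other HIF 8 higher and 0 lower and all genes 1673 higher and 773 lower, and the sign changed for Gpi1 (0.12), Eno1 (0.20), Hif3a (0.07), Egln3 (0.08) and Ankrd37 (0.00069), and the ratios Ldha to Ldhb 0.41, Hk2 to Hk1 -1.82, P4ha1 to P4ha2 0.53 and Hif1a to Epas1 0.97 no longer passed. With quantile normalization, counts became enzymes 3 higher, HIF targets 2 lower and other glycolysis 5 higher, and the sign changed for Gpi1 (0.05), Aldoa (0.30), Pgk1 (0.015), Eno1 (0.10), Pdk2 (-0.07), Hif3a (0.012), Ndrg1 (-0.047) and P4ha2 (-0.12). With the length and GC trend removed, counts became enzymes 1 lower, HIF targets 1 higher, other glycolysis 4 higher, other HIF 7 higher and all genes 1530 higher, and the sign changed for Pfkl (-0.023), Pfkm (-0.05), Pfkp (-0.06), Eno2 (-0.017), Pdk1 (-0.12), Epas1 (-0.37), Ndrg1 (-0.22) and P4ha2 (-0.06), and the ratio Aldoa to Aldoc 0.43 now passed, and the ratio P4ha1 to P4ha2 0.35 no longer passed. With lens markers as a covariate, counts became enzymes 0 higher and 0 lower, HIF subunits 0 higher, HIF targets 0 higher and 0 lower, other glycolysis 0 higher and 0 lower, other HIF 0 higher and 0 lower and all genes 1 higher and 8 lower, and the sign changed for Pkm (-0.024), Ldha (-0.06), Pdk4 (0.68), Slc16a3 (-0.09), Hif3a (0.39), Bnip3 (0.34), Egln3 (0.23), Ankrd37 (0.21), Ndrg1 (-0.06) and P4ha2 (-0.0094). With rod markers as a covariate, counts became enzymes 2 higher, and the sign changed for Egln3 (0.00018). With pan-endothelial markers as a covariate, counts became HIF targets 1 higher and 2 lower, and the sign changed for Pdk2 (-0.05), Epas1 (-0.28), Ndrg1 (-0.09) and P4ha2 (-0.18). With Müller glia and astrocyte markers as a covariate, added after seeing the data, counts became enzymes 2 higher and HIF targets 1 higher and 2 lower, and the sign changed for Pdk2 (-0.06), Epas1 (-0.14), Ndrg1 (-0.07) and P4ha2 (-0.13). Without a filter, counts became HIF targets 1 higher and other HIF 1 lower. With a filter of 10 or more in 9 libraries, counts became enzymes 2 higher and switches 1 higher. With the replicate number as a block, counts became enzymes 0 lower, HIF targets 0 higher, other glycolysis 1 higher, other HIF 4 higher and all genes 1408 higher and 1057 lower, and the sign changed for Epas1 (-0.20), Bnip3 (0.016), Ndrg1 (-0.016) and P4ha2 (-0.10), and the ratios Ldha to Ldhb 0.62, Hk2 to Hk1 -1.51, P4ha1 to P4ha2 0.61 and Hif1a to Epas1 1.68 no longer passed. With 1 library left out in turn, counts ran over enzymes lower 1 to 2, HIF targets higher 1 to 2, other glycolysis higher 4 to 9, other HIF lower 1 to 3, all genes higher 2283 to 3974, all genes lower 1247 to 2341, switches higher 0 to 1 and enzymes higher 1 to 2. Log2 ratios ran over Ldha to Ldhb 0.45 to 0.63, Hif1a to Epas1 0.68 to 1.55, P4ha1 to P4ha2 0.48 to 0.62 and Aldoa to Aldoc 0.15 to 0.25. Log2 fold changes that changed sign ran over Bnip3 -0.13 to 0.014, Egln3 -0.19 to 0.15, Gpi1 -0.11 to 0.042, Eno1 -0.16 to 0.05, Pkm -0.05 to 0.16, Pdk2 -0.018 to 0.20, Ndrg1 -0.011 to 0.16, Hif3a -0.41 to 0.07 and P4ha2 -0.033 to 0.15. The block in effect uses DBA/2J samples 1 to 5 only, and its smallest sign-flip p for a ratio is 0.0625, so no ratio could pass. Against control samples 4 and 5 alone the smallest p is 0.0182, or 0.109 adjusted where 1 ratio alone reaches it, as Hk2 to Hk1 did, so its loss there reflects the number of samples. The other causes were not tested. Other genes that passed under an alternative were Pkm, Ldha and Higd1a with quantile normalization, Pfkp and Pfkfb3 with the stricter filter, Hk2 and Pfkp with the rod covariate, Ldhb and Higd1a with the endothelial covariate, and Pfkp, Ldhb and Higd1a with the Müller glia and astrocyte covariate. Pdk4 and Hif3a rested on the fewest estimated reads of the members, 86.9 and 440.2 over all libraries.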

Other observations

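Enzymes that modify collagen and those that gate pyruvate dehydrogenase were chosen for description after their values were seen. Of the lysyl hydroxylases, Plod1 ranged over 263 to 731 with a median of 529 in DBA/2J, against 329, 256, 259, 186 and 216 in control samples 1 to 5, and rose (log2 fold change 0.95, SE 0.24, limma adjusted p = 0.0123). It did not pass against control samples 1 to 3 alone (0.76, limma adjusted p = 0.103), and with pan-endothelial markers as a covariate it was 0.58 (limma adjusted p = 0.0371). Plod2, which hydroxylates collagen telopeptides, ranged over 111 to 185 with a median of 132 in DBA/2J, against 97.0, 52.9, 53.4, 103 and 141 in the control samples (0.73, SE 0.24, limma adjusted p = 0.0427). Its call was lost with 9 of the 14 libraries left out in turn (control samples 2 and 3 and DBA/2J samples 1, 3, 4, 5, 6, 7 and 9, limma adjusted p between 0.0543 and 0.13). Plod2 was 0.20 against control samples 4 and 5 alone (limma adjusted p = 0.651) and 0.48 (limma adjusted p = 0.159) with the trend removed, and it also did not pass with quantile normalization, without a filter, or with the pan-endothelial or the Müller glia and astrocyte covariate. Loxl2, a paralog of Lox, did not pass (0.68, SE 0.34, limma adjusted p = 0.172). Pdp1, the phosphatase that switches pyruvate dehydrogenase on, ranged over 876 to 1461 with a median of 1039 in DBA/2J, against 802, 618, 219, 495 and 818 in the control samples, without overlap, and rose (0.99, SE 0.24, limma adjusted p = 0.00973). Pdha1, the catalytic subunit of that complex, rose (0.63, SE 0.17, limma adjusted p = 0.0162), but not without control sample 3 (limma adjusted p = 0.0529) or with the trend removed, where the value was 0.37 (limma adjusted p = 0.136), or against control samples 1 to 3 alone (0.58, limma adjusted p = 0.0879). Other genes of the complex did not pass, with Pdhb at -0.02 (limma adjusted p = 0.94) and Dlat at 0.64 (limma adjusted p = 0.074), nor did the kinase gene Pdk3 at 0.51 (limma adjusted p = 0.0922).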
